A study of Mus musculus with 2 samples.

Results

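The 10 genes described here encode digestive enzymes of the exocrine pancreas and 1 of their cofactors, and they are Cela2a, Cela3b, Ctrb1, Prss2, Cpa1, Cpb1, Pnlip, Pnliprp1, Cel and Clps. They are 10 of the 24346 gene symbols listed for each library. The genes were chosen by their FPKM in the library of spleen Tregs, and some were first noticed among the lowest lung-to-spleen ratios of these libraries, so the difference between the libraries is given as a description and not as a test.

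The bulk RNA-seq data hold 1 library of spleen Tregs and 1 library of lung Tregs from FDG mice, which express GFP and the diphtheria toxin receptor from the Foxp3 locus. Mice of 10 to 16 weeks received 50 μg of intratracheal bleomycin (BLM), and on day 15 GFP+CD4+ cells were sorted from both organs, with the cells of 3 mice pooled for each library. No library of untreated mice or of pancreas was analysed here, so both libraries share the BLM treatment. With 1 library per tissue there is no spread between replicates, and no p-value is given. Below, spleen Tregs and lung Tregs stand for these libraries, which also held markers of other cell types.

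Acinar cells, the main cells of the exocrine pancreas, store digestive enzymes as inactive precursors in zymogen granules and release them into the ducts. The enzymes fall into serine proteases, which cut inside proteins, carboxypeptidases, which remove the last amino acid, and lipases with their cofactor colipase. In mice the tail of the pancreas lies against the spleen.

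Levels are given as FPKM, the number of fragments of a gene scaled to transcript length and to library size, as the authors computed them. Foxp3, which marks the sorted cells, was listed at 18.7 FPKM in spleen Tregs and 41.8 in lung Tregs, Cd4 at 195 and 179, and Cd3e at 513 and 369. The FPKM summed to 599633 in the spleen library and 808853 in the lung library. Counts of reads are not in the files, but low values step with the value of 1 read, which for an effective transcript length of 1 kb was 0.0964 FPKM in the spleen library and 0.0849 FPKM in that of lung. Estimated read numbers below rest on these values. Intervals of a level are exact 95% Poisson intervals of the estimated reads. Those of a ratio of 2 levels come from exact 95% binomial intervals of the estimated reads. Both cover counting error only, because copies of a molecule made by PCR could not be told from separate molecules. An exact 0 is given as listed at 0, since the files do not say whether an estimate failed. For a count of 0, a limit of 3 reads was used, below the 3.69 reads where the exact 95% interval ends. Folds given as at least a value divide the listed spleen FPKM by the FPKM of 3 lung reads. They leave out counting error in spleen and use the lower limit of 3 reads, so they are not 95% limits. In bulk RNA, fewer cells of a type and less RNA per cell cannot be told apart.

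All 10 genes had reads in the spleen library, between 4.58 FPKM for Pnliprp1 and 50.02 FPKM for Cela2a, a range of 10.9-fold with a median of 11.9 FPKM. In lung Tregs 8 of them were listed at 0, and only Cpa1 and Cpb1 were above 0, at 0.0620 and 0.0661 FPKM. The sum over the 10 genes was 191 FPKM in spleen and 0.128 FPKM in lung, or about 1887 and 2.96 estimated reads. The 1887 reads made up 0.0191% of the estimated reads of the spleen library. Cela2a, Clps, Prss2 and Pnlip were each listed above Foxp3 in the spleen library. The counting interval of Pnlip (18.9 to 23.9 FPKM) overlapped that of Foxp3 (17.4 to 20.2 FPKM).

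**Figure D1:**
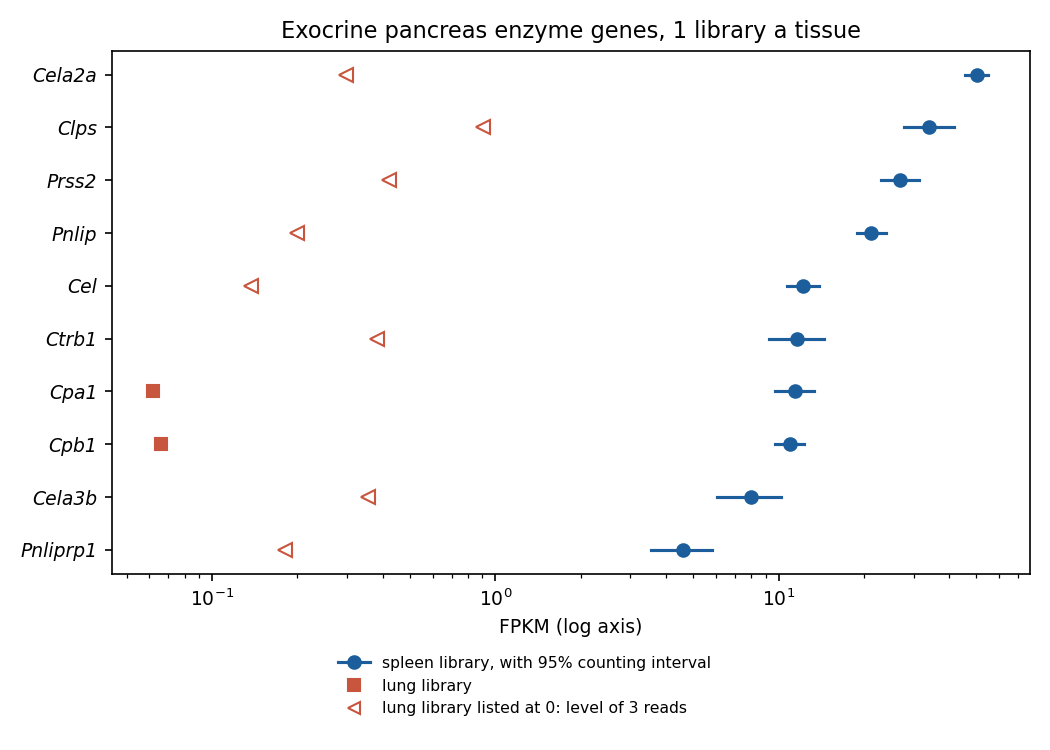
FPKM of the 10 enzyme genes on a log axis in the spleen library (circles, with 95% counting intervals) and in the lung library (squares, or open triangles at the level of 3 reads where the gene was listed at 0). The spleen values lie between 4.58 and 50.02 FPKM, to the right of every lung value and lung limit.

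After values under 0.1 FPKM were set to 0.1 in both libraries, 10 of 10 genes were over 20-fold lower in lung Tregs, the fold used in the study. With a floor or a pseudocount of 1 FPKM the count was 4. In the background of all symbols, 284 of 24346 (1.17%) were over 20-fold lower, and among the 6426 symbols within the 10 genes' range of splenic FPKM, 100 (1.56%) were. Listed at 0 in lung were 59 of these 6426 symbols (0.918%). The median log2 ratio of lung to spleen was -6.90 over the 10 genes, 0.00 over all symbols and -0.14 over the symbols within the range. Over 20-fold higher in lung were 395 symbols, and after rescaling to TPM 459 were lower and 381 higher. Nothing is read from these shares, because the same values chose the genes. The floored folds ran from 45.8-fold for Pnliprp1, the nearest to the 20-fold threshold, to 500.2-fold for Cela2a. With a floor of 3 reads per library the range was 22.5-fold for Cela3b to 169-fold for Cela2a, with a median log2 ratio of -5.97.

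**Figure D2:**
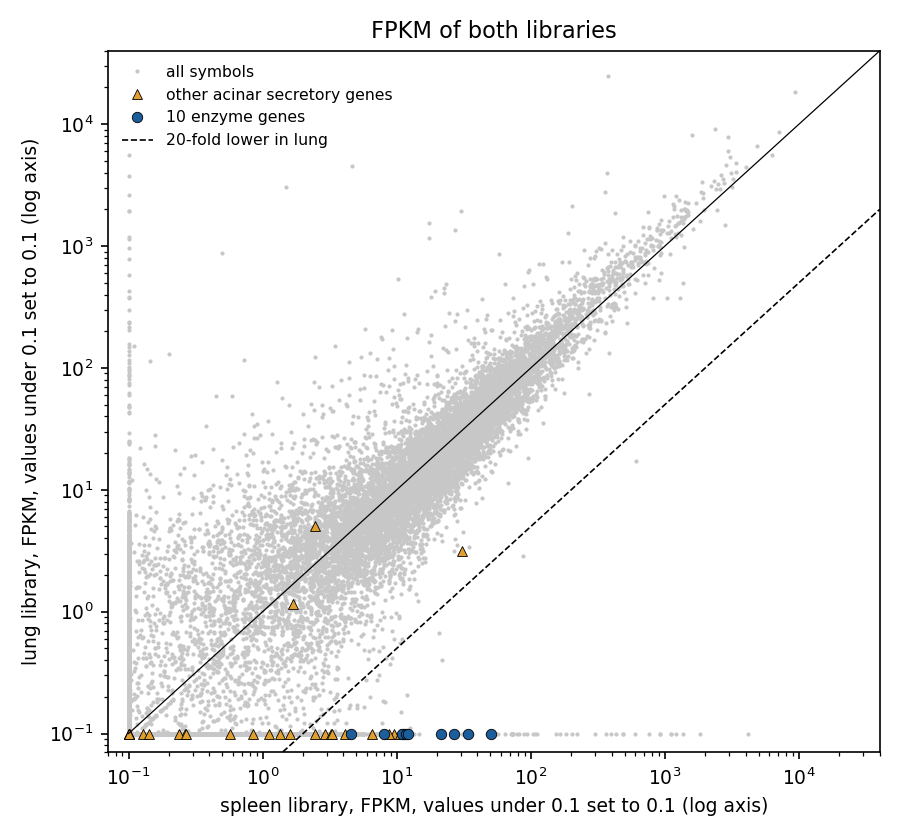
FPKM of every symbol in the spleen library (x axis) and the lung library (y axis), both on log axes with values under 0.1 set to 0.1. The 10 enzyme genes (circles) lie at the floor of the lung axis and beyond the dashed line of a 20-fold lower value, while 3 of the other acinar genes (triangles) lie above that floor.

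The 4 serine proteases held 96.5 FPKM, 50.5% of the sum of the 10 genes in spleen Tregs, on about 756 estimated reads. Cela2a encodes an elastase that cuts after aliphatic and aromatic residues and lies on the minus strand at chr4:141814962-141826160 (GRCm38, the build also called mm10). It was listed at 50.02 FPKM in spleen (45.5 to 54.9, about 447 reads) and at 0 in lung. The limit of 3 reads there was 0.296 FPKM, so Cela2a was at least 169-fold lower. Prss2, an anionic trypsinogen whose product activates the other enzymes, lies on the plus strand at chr6:41521787-41525079. Its level was 26.9 FPKM in spleen (23.0 to 31.3, about 169 reads), and it was listed at 0 in lung, at least 63.9-fold lower. The spleen library thus held both an elastase and a trypsinogen above the level of Foxp3.

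Ctrb1, which encodes chymotrypsinogen B, lies on the minus strand at chr8:111686519-111691010. Its level in spleen was 11.7 FPKM (9.27 to 14.5, about 80.8 reads), and it was listed at 0 in lung, at least 30.6-fold lower. Cela3b, a further member of the elastase family, lies on the minus strand at chr4:137420999-137430540 and was listed at 7.98 FPKM (6.04 to 10.2, about 59.4 reads) and at 0 in lung, at least 22.5-fold lower. Within the spleen library Cela2a was 6.27-fold above Cela3b (4.80 to 8.42) and 4.29-fold above Ctrb1 (3.38 to 5.50), and Prss2 was 2.30-fold above Ctrb1 (1.76 to 3.04), all per transcript length.

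These proteases share a fold and a catalytic serine, and close relatives lie in the same genome, so the part of each transcript around that serine is printed to show how far the sequences can be told apart by reads of 75 bases. Each line gives 60 bases of the GENCODE transcript in the 5′ to 3′ direction, and the capitals mark the 18 bases that encode the conserved residues around the serine.
Cela2a: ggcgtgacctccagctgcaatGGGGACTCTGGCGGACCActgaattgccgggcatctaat
Cela3b: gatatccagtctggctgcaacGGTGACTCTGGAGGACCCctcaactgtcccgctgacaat
Ctrb1: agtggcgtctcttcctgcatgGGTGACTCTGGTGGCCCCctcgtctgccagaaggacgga
Prss2: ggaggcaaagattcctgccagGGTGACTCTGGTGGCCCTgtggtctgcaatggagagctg
Try4: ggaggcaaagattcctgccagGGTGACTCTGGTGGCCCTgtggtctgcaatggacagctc
Try5: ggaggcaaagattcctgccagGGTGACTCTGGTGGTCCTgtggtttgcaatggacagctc
Over these 60 bases, Prss2 had the same base as Cela2a at 30 positions, as Cela3b at 31 and as Ctrb1 at 39. It had the same base as the trypsinogens Try4 and Try5 at 58 and 56 positions.

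Over whole transcripts, 23.7% of the 75-base windows of Cela2a were also present in transcripts of other genes, all of them in a transcript model of its neighbour Ctrc, and 2.11% also in Casp9. Ctrc itself was listed at 0.129 FPKM in spleen, and Casp9 had 4.91 FPKM in spleen and 6.44 FPKM in lung, the library in which Cela2a was listed at 0. Of the windows of Cela3b, 21.01% were shared with Cela3a, which was listed at 0 in both libraries. Prss2 shared 0.945% of its windows with Try10, listed at 0.141 FPKM in spleen. The transcripts of the other 7 genes shared none, so reads could be split with a relative for Cela2a, Cela3b and, on few windows, Prss2.

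Both carboxypeptidases had reads in the spleen library, and they were the enzymes with reads in the lung library. Cpa1, a carboxypeptidase of type A that removes aliphatic and aromatic residues, lies on the plus strand at chr6:30639218-30645363. The spleen library had 11.4 FPKM of it (9.75 to 13.3, about 163 reads) and the lung library 0.0620 FPKM, about 1.0 read. Its ratio of 184 between the listed values therefore had a counting interval of 32.8 to 7354. Cpb1, a carboxypeptidase of type B that removes lysine and arginine, lies on the minus strand at chr3:20248264-20275733. It was listed at 11.0 FPKM in spleen (9.72 to 12.3, about 285 reads) and 0.0661 in lung, about 1.95 reads, a ratio of 166 (44.4 to 1342). The level of Cpa1 in spleen was 1.04-fold that of Cpb1, with a counting interval of 0.856 to 1.27, so these 2 genes did not differ beyond counting error.

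The lipases and colipase held 72.2 FPKM, 37.8% of the sum in spleen Tregs, on about 684 estimated reads, and all were listed at 0 in lung Tregs. Pnlip, the triglyceride lipase of pancreatic juice, lies on the plus strand at chr19:58652498-58681788 and was listed at 21.3 FPKM in spleen (18.9 to 23.9, about 282 reads), at least 107-fold above lung. Clps encodes colipase, which anchors this lipase on fat droplets covered by bile salts, and lies on the minus strand at chr17:28558149-28560766. It was listed at 34.1 FPKM (27.8 to 41.5, about 99.9 reads), at least 37.8-fold above lung. Its transcripts have 2 lengths, 372 and 611 nt, and their median was used, so its read number is approximate. The lipase and its cofactor were thus both among the 4 highest of the 10 genes.

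Cel, the lipase that bile salts activate and that also cleaves cholesterol esters, lies on the minus strand at chr2:28555795-28563403. Its value in spleen was 12.2 FPKM (10.7 to 13.9, about 235 reads), at least 89.0-fold above lung. Pnliprp1, a relative of Pnlip with little known lipase activity, lies beside it on the plus strand at chr19:58728887-58744169. It was listed at 4.58 FPKM (3.55 to 5.82, about 67.0 reads), at least 25.3-fold above lung. Pnlip was 4.64-fold above Pnliprp1 in spleen (3.55 to 6.16).

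In the order of splenic FPKM, Cela2a stood above Clps and Pnliprp1 stood below Cela3b with intervals that did not overlap. The intervals of Clps and Prss2 overlapped, as did those of Prss2 and Pnlip. Cel, Ctrb1, Cpa1 and Cpb1 lay within 11.0 to 12.2 FPKM and could not be ordered at this depth, and the interval of Cela3b overlapped those of Ctrb1, Cpa1 and Cpb1. Among all symbols the 10 genes ranked from 2058 (Cela2a) to 8483 (Pnliprp1) by FPKM in the spleen library.

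The promoters of acinar enzyme genes are known for a composite site of the factor PTF1, made of an E-box and a TC-box. The 250 bases before the RefSeq start site (GRCm38.p6) were searched on both strands for CANNTG (the E-box), TGGGAA (the core of the TC-box) and TATAAA, where a match of TGGGAA may share letters with one of CANNTG. Of the 10 genes, 9 had a promoter in the table used, 1 each, and Clps had none. TGGGAA was in 7 of the 9 promoters (77.8%), in 12 of 28 promoters of 26 other acinar genes (42.9%) and in 21.6% of all 32851 promoters. CANNTG was in 8 of 9 (88.9%), against 82.1% and 66.2%, and both together were in 6 of 9 (66.7%), against 32.1% and 14.8%. TATAAA was in 2 of 9, against 14 of the 28 promoters and 12.4%. These matches are letters in a window and no evidence of binding.

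The promoters of a trypsinogen, of Cel and of Pnliprp1 are printed because each holds TGGGAA once, at a like distance from the start site, and overlaps no annotated transcript of its gene. Each is the strand of the gene in the 5′ to 3′ direction, ends at the base before the RefSeq start site and has TGGGAA in capitals, which begins at position -111, -87 and -91, respectively, counted so that the base before the start site is -1.
Prss2, chr6:41521526-41521775, plus strand: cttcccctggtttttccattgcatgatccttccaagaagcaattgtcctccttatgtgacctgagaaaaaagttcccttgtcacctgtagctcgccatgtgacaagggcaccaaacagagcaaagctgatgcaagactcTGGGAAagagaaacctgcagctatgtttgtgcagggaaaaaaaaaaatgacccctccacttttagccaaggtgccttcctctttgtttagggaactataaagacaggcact
Cel, chr2:28563404-28563653, minus strand: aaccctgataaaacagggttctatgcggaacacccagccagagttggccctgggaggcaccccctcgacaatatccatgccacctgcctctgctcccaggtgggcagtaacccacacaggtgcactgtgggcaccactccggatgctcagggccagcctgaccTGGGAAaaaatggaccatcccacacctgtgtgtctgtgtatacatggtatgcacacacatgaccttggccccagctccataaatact
Pnliprp1, chr19:58728637-58728886, plus strand: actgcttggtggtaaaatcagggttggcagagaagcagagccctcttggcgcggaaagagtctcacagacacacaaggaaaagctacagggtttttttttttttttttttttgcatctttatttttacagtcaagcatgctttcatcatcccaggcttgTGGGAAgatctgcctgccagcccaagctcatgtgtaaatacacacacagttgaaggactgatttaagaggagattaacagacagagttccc
In Cela2a the same letters began at position -85 and in Cpa1 at -20. In Ctrb1 and Pnlip they lay on the opposite strand, at -194 and -171, and in Cpb1 and Cela3b they were not found in this window.

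A list of 35 further secretory genes of acinar cells was written with earlier results of these data known, and 32 of them were in the files. Of the 32, 10 were over 20-fold lower in lung Tregs, where the share of all symbols was 1.17%, and 0 were over 20-fold higher. With a floor of 3 reads per library the count was 4 of the 31 genes with a transcript length, beside 217 of 23210 symbols. It was 0 with a floor or a pseudocount of 1 FPKM, beside 51 and 49 of 24346 symbols. The summed level was 104 FPKM in spleen and 9.30 in lung, and the median log2 ratio was -1.97. At 1 FPKM or more were 16 of the genes in spleen and 3 in lung.

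The 10 genes past the threshold were all listed at 0 in lung. The proteases among them were Ctrl (9.51 FPKM in spleen), a chymotrypsin-like protease, the trypsinogens Try4 (6.53), Try5 (3.25) and 2210010C04Rik (2.89), and Klk1 (2.46), a kallikrein. Sycn (11.3) and Zg16 (8.79) are proteins of the zymogen granule, and Gp2 (3.27) is its main membrane glycoprotein. Rnase1 (10.6), the pancreatic ribonuclease, and Reg1 (4.13), a secreted lectin, made up the rest. With a floor of 3 reads, Ctrl, Rnase1, Gp2 and 2210010C04Rik were past the threshold, and the other 6 were at least 6.22-fold (Klk1) to 15.4-fold (Sycn) lower. Of the 75-base windows of Try4 and Try5, 43.9% and 37.8% were shared with other genes, so their values are uncertain.

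The 6 other genes at 1 FPKM or more in spleen did not pass the threshold. The elastase Cela1 had 30.5 FPKM in spleen and 3.12 FPKM in lung, about 284 and 33.1 reads, which is 9.77-fold lower. Dnase1 was at 1.67 and 1.16 FPKM, and Erp27, a protein of the endoplasmic reticulum, was the 1 gene of the list higher in lung, at 2.46 and 5.02. Amy2b (1.61 FPKM), Spink1 (1.35) and Pla2g1b (1.12) were listed at 0 in lung, with about 7.30 and 4.05 reads in spleen for Spink1 and Pla2g1b. Thus Cela1 was listed above 1 FPKM in lung, while its relatives Cela2a and Cela3b were listed at 0.

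A further 8 genes, among them the lipase relative Pnliprp2 (0.851 FPKM), the protein disulfide isomerase Pdia2 (0.574) and Ctrc (0.129), were above 0 but under 1 FPKM in spleen, and another 8 were listed at 0 in both libraries. The latter included the amylase genes Amy2a2, Amy2a4 and Amy2a5, of whose windows 100%, 100% and 51.2% are shared with other genes, so that their values are uncertain. They also included the trypsinogens Prss1 and Prss3, with 37.1% and 53.9% of windows shared. With the 10 enzyme genes included, 20 of 42 acinar genes were over 20-fold lower in lung. A floor of 3 reads left 10 enzyme genes and 4 others, and a floor of 1 FPKM left 4 enzyme genes and 0 others. Among all symbols, 284 of 24346 were past the threshold in the main setting. The floor of 3 reads gave 217 of 23210, and that of 1 FPKM 51 of 24346. The 10 enzyme genes in these counts were chosen on the same values. The 42 genes summed to 295 FPKM in spleen, 0.0492% of the FPKM of that library, and to 9.43 in lung.

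**Figure D3:**
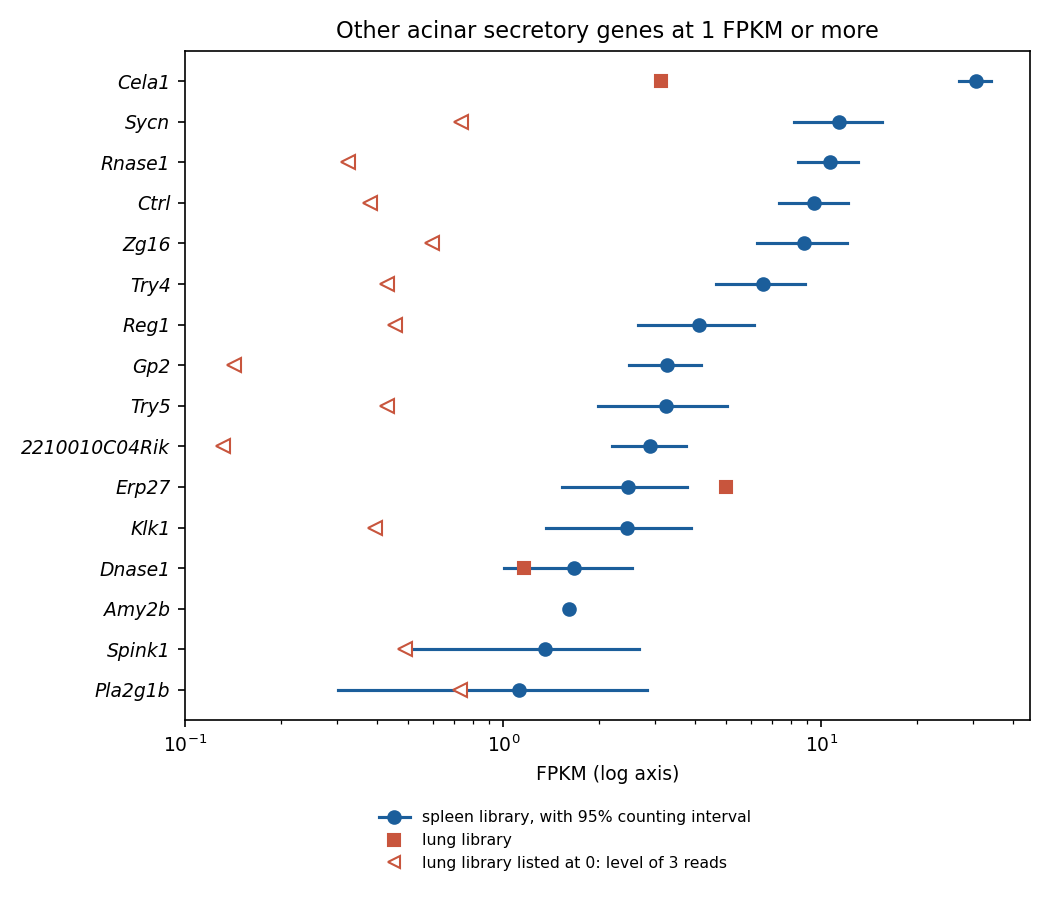
FPKM on a log axis of the 16 other acinar secretory genes at 1 FPKM or more, with spleen values as circles (95% counting intervals, none for Amy2b), lung values as squares and lung limits of 3 reads as open triangles. Cela1, Erp27 and Dnase1 have lung values above 1 FPKM, and the rest are listed at 0 in lung.

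Symbols with the pattern most like that of Cela2a were sought by their place among the symbols listed at 0 in lung, with small RNA left out, in the order of splenic FPKM over the 2 libraries. Of 2162 such symbols, the 5 highest were Vcam1 (72.9 FPKM), an adhesion molecule, Cela2a (50.02), Ngp (36.4), a neutrophil granule protein, Clps (34.1) and Prss2 (26.9). At the level of the lowest of the 10 genes or above were 56 symbols, and 13 of them were acinar, 8 of the 10 genes and Sycn, Rnase1, Ctrl, Zg16 and Try4. The first 20 held 6 of the 10 genes and 4 other acinar genes. Of all 24346 symbols, 42 were acinar genes of these lists. The same values chose the 10 genes, and the other acinar genes were listed with earlier results known. Nothing is read from these counts.

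The genes that define acinar cells as a lineage were near or at 0 in both libraries. Of 6 acinar transcription factor and receptor genes, 0 were at 1 FPKM or more in either library, with sums of 0.212 FPKM in spleen and 0.140 in lung. Ptf1a, Rbpjl, Nr5a2 and Gata4, transcription factors of acinar cells, were listed at 0 in both. Bhlha15, which drives the secretory state, was at 0.176 and 0.0776 FPKM, and Cckar, the receptor for cholecystokinin, at 0.0354 and 0.0624. The list summed to about 7.0 reads in spleen, against 1887 for the 10 enzyme genes. Without a library of pancreas, the reads to be expected for these genes beside the enzymes are unknown here.

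Genes of other pancreatic cells and of neighbouring organs did not share the levels of the enzymes. Of 12 islet genes, 0 were at 1 FPKM or more, the sum was 0.375 FPKM in spleen and 0 in lung, and Ins1, Ins2, Sst, Ppy, Pyy, Iapp, Pcsk2, Pdx1 and Nkx6-1 were listed at 0 in both libraries. Gcg, Chga and Slc2a2 were at 0.219, 0.115 and 0.0408 FPKM in spleen. Of 7 duct genes, 0 were at 1 FPKM or more in spleen and 3 were in lung, with sums of 0.863 and 20.9 FPKM, and Krt19 and Krt7 were listed at 0 in spleen and at 11.7 and 3.70 in lung. The sums in spleen were 0.4999 FPKM for 10 stomach genes, all of it Ghrl, 1.18 for 8 liver genes, 0.0663 for 8 small intestine genes and 0.627 for 8 adipose and mesothelial genes. In lung these sums were 156 FPKM, all of it Tff1, then 0.673, 0.409 and 4.90. None of these 4 lists had a gene at 1 FPKM or more in spleen. For the islet, duct and organ lists, too, the levels to be expected beside the enzymes are unknown here.

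Markers of other cell types were in the same libraries. Of 7 red pulp macrophage genes, 6 were at 1 FPKM or more in spleen and 4 in lung, with sums of 290.2 and 71.2 FPKM, and Vcam1 (72.9 and 0), Spic (21.6 and 0.402) and Slc40a1 (87.8 and 2.87) were over 20-fold lower in lung. Hmox1, the highest of them, was at 91.0 and 42.5, while Adgre1 (14.6 and 24.3) and Siglec1 (0.515 and 1.13) were higher in lung. Cd163 (1.92 and 0.0404) was just under the threshold, at 19.2-fold lower. With a floor of 3 reads it was past the threshold, at 31.7-fold. Of 8 erythroid and platelet genes, 6 were at 1 FPKM or more in spleen and 1 in lung, with sums of 51.2 and 67.0 FPKM, of which 65.5 in lung were Pf4. Hba-a1 (14.6 FPKM in spleen), Hba-a2 (4.58), Hbb-bs (5.19) and Ppbp (7.85) were over 20-fold lower in lung, and 3 of these 4 were listed at 0 there. With a floor of 3 reads, Hba-a2 and Hbb-bs were under the threshold, at 6.21-fold and 8.54-fold. Hbb-b1 (7.71 and 0.997) was 7.73-fold lower in the main setting. The 6 B cell genes were all lower in lung, none over 20-fold, with sums of 253 and 132 FPKM and Cd79b highest, at 90.4 and 59.7. The neutrophil granule genes Ngp (36.4 FPKM in spleen), Camp (21.7) and Ltf (11.6) were listed at 0 in lung. Camp and Ltf were picked after their values were seen, and no list of neutrophil genes was used here. The part of these cell types in the levels of the 10 enzyme genes was not tested.

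Of the 8 lung epithelial genes, 7 were higher in lung and Ager was lower, at 2.27 FPKM in the spleen library and 1.74 FPKM in that of lung. The list summed to 146 FPKM in spleen, of which Hopx was 141.8, and 3506 in lung, of which Scgb1a1 of club cells was 3021. Lung Tregs were over 20-fold higher for 5 of them and over 20-fold lower for 0, and Sftpc, Sftpb, Sftpd and Scgb3a2 were listed at 0 in spleen. The 10 T cell and Treg genes were all at 1 FPKM or more in both libraries, with sums of 2475 and 2950 FPKM, 0 past 20-fold and a median log2 ratio of 0.14.

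**Figure D4:**
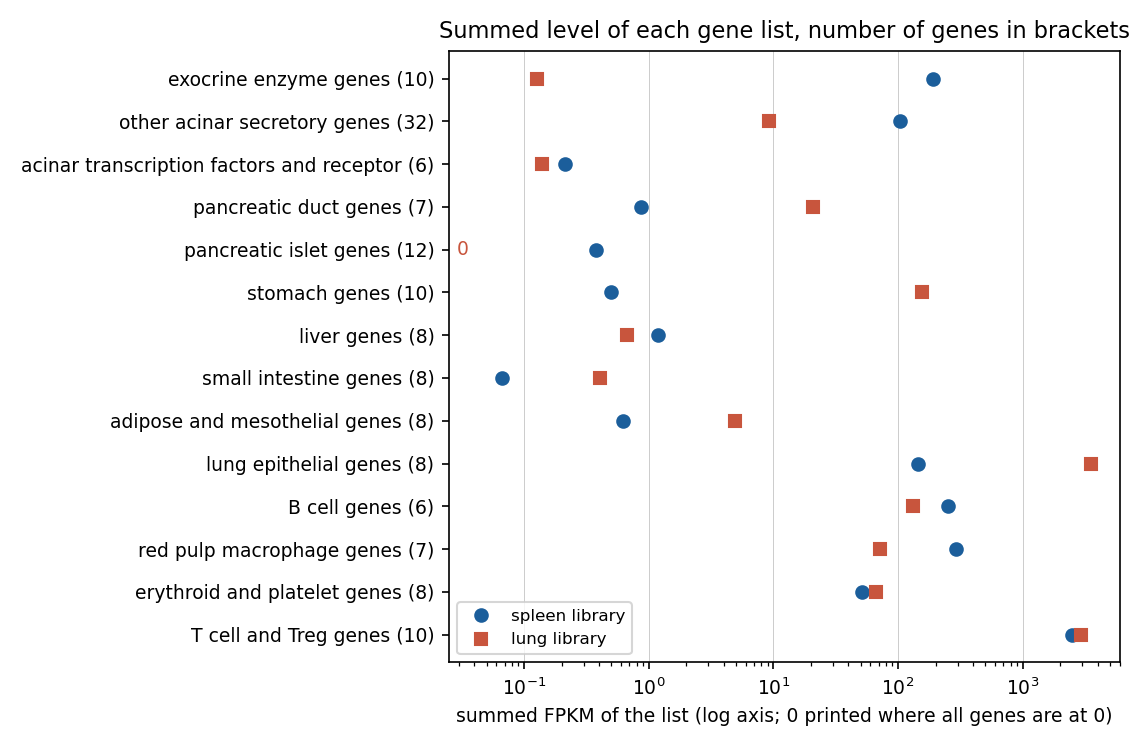
Summed FPKM of each gene list on a log axis in the spleen library (circles) and the lung library (squares), with the number of genes in brackets. The 10 enzyme genes, which were chosen on these values, sum to 191 FPKM in spleen and 0.128 in lung. The islet, stomach, intestine and transcription factor lists stay under 1 FPKM in spleen.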

How the data were processed

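GFP+CD4+ cells of spleen and lung gave 1 SMART-Seq HT library each, without molecular identifiers, sequenced as 75-base single-end reads. The deposited values are FPKM per gene symbol, which the authors computed with Cuffdiff 2.2.1 from reads mapped to mm10 with TopHat2 2.1.1, Bowtie2 2.2.8 and SAMtools 0.1.18. The gene annotation and the scaling between libraries are not given in the sources used here. FPKM sums and the FPKM of 1 read are the only depth measures.

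Here, values under 0.1 FPKM were set to 0.1, the lung value was divided by the spleen value, and folds over 20 were counted, without a test. The 10 genes and all 14 lists were chosen with earlier results of these data known, and 1 gene of the list of other acinar genes, which was not past the threshold, is not reported here and was left out of the counts. Reads were estimated from GENCODE M21 transcripts tied to RefSeq (23210 symbols), with the median length of a gene's transcripts, a fragment length of 200 with an SD of 80 and a shortest fragment of 75. To find what 1 read was worth, FPKM was multiplied by effective length for genes with a single transcript length of 1500 nt or more, and the commonest value was taken, which 215 genes of the spleen library and 132 of the lung library held within 1%. Among genes with 1 to 10 estimated reads, 72.8% of 2091 in spleen and 74.7% of 1247 in lung lay within 0.1 of a whole number, and the estimated reads summed to 9867769 and 12887341. Shared 75-base windows were counted against all GENCODE transcripts. Promoters come from RefSeq.

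Named genes were the 10 genes, other acinar genes at 1 FPKM or more, up to 4 of the highest genes in spleen and the absent genes of other lists, Foxp3, Cd4, Cd3e, and the 5 highest symbols listed at 0 in lung. Genes outside this rule were also named with their values known, among them Pnliprp2, Pdia2, Ctrc, Casp9, Camp, Ltf, Adgre1, Siglec1, Cd163, Hba-a2 and Hbb-bs. Alternatives were other floors, pseudocounts, scalings, folds and transcript lengths. The value of 1 read and the calls over 20-fold were tested on simulated data. Changes were set there only in genes with more reads than most of the 10 genes had. The window, promoter and interval steps were not simulated. Computations ran in Python 3.11.15 with scipy 1.17.1, numpy 2.4.6 and pandas 2.3.3, and plots in matplotlib 3.10.9.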

Additional observations from a re-analysis of the deposited data

How the results depend on the processing

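With 1 library per tissue, no replicate could be left out. No paired analysis was possible because the result comes from no test. The count of enzyme genes over 20-fold lower fell from 10 to 4 with a floor or a pseudocount of 1 FPKM. For the other acinar genes, 10 in the main setting, it was 18 with a floor of 0.01 FPKM, 0 with a floor or a pseudocount of 1 FPKM, 4 with a floor of 3 estimated reads in each library and 5 over 50-fold. The median log2 ratio of the 10 enzyme genes, -6.90 in the main setting, was -10.22 and -3.58 with floors of 0.01 and 1 FPKM, -6.91 and -3.69 with pseudocounts of 0.1 and 1 FPKM, -7.64 after rescaling to TPM and -5.97 with the floor of 3 reads. It was negative under every setting, but the choice of the genes on these values had set that sign, so nothing is read from it. Where a gene is listed at 0, the size of the ratio is set by the floor. Over all symbols, 284 were over 20-fold lower and 395 higher, against 459 and 381 after rescaling to TPM, which moved the median log2 ratio of symbols at 1 FPKM or more in both libraries from 0.02 to -0.42. Floors of 0.01 and 1 FPKM gave 1256 lower and 867 higher, and 51 and 102. A pseudocount of 1 FPKM gave 49 and 78, over 10-fold 573 and 742, and over 50-fold 112 and 140. With the floor of 3 reads, 217 of 23210 symbols were lower and 309 higher. The estimated reads of the 10 genes in spleen, 1887, became 1929 with the longest and 1846 with the shortest transcripts. Counting error does not include sampling of few cells or amplification.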
